A study of Mus musculus with 2 samples.

Results

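The miR-23/27/24 clusters are a pair of paralogous miRNA clusters, and the small RNA tags of their 6 hairpins, Mir23a, Mir27a and Mir24-2 (cluster a) and Mir23b, Mir27b and Mir24-1 (cluster b), were examined in mESCs. A tag is a distinct read sequence with its number of reads. Tags were taken when they matched 1 of these hairpins perfectly over their whole length. This gave 120 distinct tags from 6 of 1174 named hairpins, with 17427 reads in the control and 18614 after PD. Per 1000000 clean reads (RPM), the 6 hairpins held 924 of the 115574 RPM of all hairpins in the control, and 889 of 100798 RPM after PD.

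J1 mESCs, a mouse embryonic stem cell line, were grown without feeders on gelatin, with 1000 U/ml LIF and 15% knockout serum replacement in all samples. They were exposed for 24 h to PD0325901 (PD), an inhibitor of the kinase MEK, at 1 μM, or to the same volume of its solvent DMSO (control). Each library was made from RNA pooled from 3 independent experiments, so that there was 1 library per treatment and no replicate. The depth was 18870345 clean reads for the control and 20944808 for PD, and 3 reads corresponded to 0.159 and 0.143 RPM. All intervals and tests given here cover the counting of reads only, and no test of the treatment was possible.

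A miRNA hairpin is cut from a longer primary transcript by Drosha and then by Dicer, and either its 5′ strand (5p) or its 3′ strand (3p) is loaded into Argonaute. Bases 2 to 8 of the loaded strand, the seed, choose most of its target mRNAs. The miR-23/27/24 clusters arose by duplication, and each is transcribed as a common precursor, so that both can supply miRNAs of the same seeds. miR-23a and miR-23b are known for repressing glutaminase and for being repressed by c-Myc, miR-27 for restraining adipocyte differentiation, and miR-24 for repressing cell cycle and DNA repair genes. In mESCs, miR-27a and miR-24 are better known from differentiating than from self-renewing cells.

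In GRCm38, cluster a spanned 404 nt of chromosome 8, with Mir23a at chr8:84208518-84208592, Mir27a at chr8:84208672-84208758 and Mir24-2 at chr8:84208815-84208921, all on the plus strand. The last 2 bases of Mir24-2 overlapped an exon of the lincRNA gene Gm26532, and Mir23a and Mir27a overlapped no other annotated gene. Cluster b spanned 792 nt of chromosome 13 on the plus strand, with Mir23b at chr13:63300484-63300557, Mir27b at chr13:63300712-63300784 and Mir24-1 at chr13:63301208-63301275. All 3 lay within the gene 2010111I01Rik, Mir23b in an intron and the other hairpins over an exon of at least 1 of its transcripts. The gene Fancc runs through cluster b on the opposite strand.

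The mature sequences show which reads can tell the clusters apart. RefSeq (GRCm38.p6) held 10 of the 11 mature arms. The 3p arms shown here carried most of the reads, and capitals mark the seed.
miR-23a-3p: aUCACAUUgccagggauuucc
miR-27a-3p: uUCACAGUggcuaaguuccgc
miR-27b-3p: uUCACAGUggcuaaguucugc
miR-24-3p: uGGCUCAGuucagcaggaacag
miR-27a-3p and miR-27b-3p differed only by C19U, with positions counted from 1 at the 5′ end and the base of miR-27a-3p first. Thus a miR-27-3p read has to be at least 19 nt long to name its hairpin. The 3p tags of Mir23a and Mir23b also first differed at position 19. Mir24-1 and Mir24-2 release the identical miR-24-3p, which was counted 1 time for both.

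The 5p arms differed more between the paralogs, and their seeds are again in capitals.
miR-23a-5p: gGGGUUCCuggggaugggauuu
miR-23b-5p: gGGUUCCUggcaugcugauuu
miR-27a-5p: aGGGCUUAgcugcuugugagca
miR-27b-5p: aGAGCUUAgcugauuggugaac
miR-24-1-5p: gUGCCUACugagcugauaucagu
miR-24-2-5p: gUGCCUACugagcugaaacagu
The 5p arms of Mir23a and Mir23b, and those of Mir27a and Mir27b, had different seeds, whereas both miR-24-5p arms shared their first 16 bases and the seed. The seed of miR-24-3p was also that of miR-5124b, miR-6369, miR-6410 and miR-6413, whose hairpins together had 1 read in the control and 0 in the PD library. A count of 0 allows up to 0.143 RPM in the PD library.

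All 11 mature arms had reads, and 8 of them reached 1 RPM in either library, which was taken as detected. With miR-27-3p left aside, miR-23a-3p came first in the order of level in the control library. This 3p arm had 4837 reads (256.3 RPM) in the control and 5283 (252.2 RPM) after PD. Its ranks among all detected mature miRNAs were 59 and 56. miR-24-3p followed with 3387 reads (179.5 RPM) and 4498 (214.8 RPM). miR-23b-3p had 2399 reads (127.1 RPM) in the control and 2837 (135.5 RPM) after PD. The order of these 3 miRNAs was the same in both libraries, and their counting intervals did not overlap.

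The miR-27-3p reads had to be divided. Reads that fitted both hairpins numbered 3453 (183.0 RPM) in the control and 1980 (94.5 RPM) after PD. Reads of Mir27b alone numbered 1135 (60.1 RPM) and 1111 (53.0 RPM). Reads of Mir27a alone were the fewest, with 215 (11.4 RPM) and 489 (23.3 RPM). The shared reads were 71.9% of all miR-27-3p reads in the control (Wilson 95% interval 70.6 to 73.1%) and 55.3% after PD (53.7 to 56.9%). The level of miR-27a-3p in the clean reads was therefore bounded only between 11.4 and 194.4 RPM in the control and between 23.3 and 117.9 RPM after PD. For miR-27b-3p the bounds were 60.1 and 243.1 RPM in the control and 53.0 and 147.6 RPM after PD. These bounds take the last bases of each tag as copied from the hairpin it matches. They would be wider if some tags of 19 nt were the shared tag with an added base. The Mir27b tag of that length alone held 783 reads (41.5 RPM) in the control and 607 (29.0 RPM) after PD. The bounds of the paralogs overlapped in both libraries, so that their order was not settled. In the control both upper bounds lay above miR-24-3p (179.5 RPM) and both lower bounds below it, so that their order beside miR-24-3p was not settled either. For miR-23-3p, by contrast, the shared reads were only 2 in the control and 3 in the PD library.

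Among the 5p arms, miR-27b-5p had 937 reads (49.7 RPM) in the control and 955 (45.6 RPM) after PD. miR-23b-5p had 917 (48.6 RPM) and 1325 (63.3 RPM). Their counting intervals overlapped in the control (46.5 to 52.9 and 45.5 to 51.8 RPM) but not after PD (42.7 to 48.6 and 59.9 to 66.8 RPM). miR-23a-5p was lower, with 114 reads (6.04 RPM) in the control and 92 (4.39 RPM) after PD. The remaining 5p arms stayed below 1 RPM in both libraries. miR-24-2-5p had 14 and 18 reads, miR-27a-5p 12 and 13 reads, and miR-24-1-5p 3 and 5 reads.

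**Figure D1:**
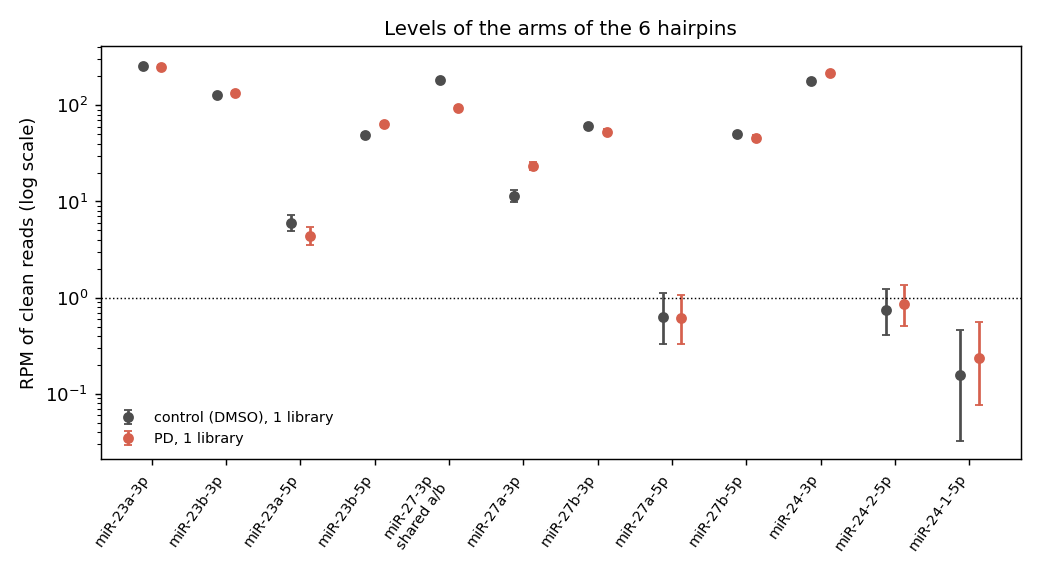
Level of each mature arm of the miR-23/27/24 hairpins, in RPM of clean reads on a log axis, in the control and the PD library (1 library each). Bars are 95% intervals of the read counts, the dotted line is the detection limit of 1 RPM, and miR-23a-3p lies highest while 3 of the 5p arms lie below the line in both libraries.

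The reads were also divided by family of hairpins, with both arms and their different seeds pooled. The miR-23 family held 47.4% of the reads of the 6 hairpins in the control and 51.3% in the PD library. miR-24 held 19.5% and 24.3%, and miR-27 held 33.0% and 24.5%. The miR-27 family as a whole was at a fold change of 0.713 (PD over control, 95% interval 0.685 to 0.741). For miR-23 the fold change was 1.04, for miR-24 1.20, and for the 6 hairpins together 0.962. A difference in level between families also carries the ligation and PCR preference of each sequence.

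A fold change of 1.5 either way, which the study used to call a miRNA changed, was reached by 1 of the 8 detected arms (12.5%), miR-27a-3p. Among all 519 detected mature miRNAs 19.8% reached it, 6.17% upward and 13.7% downward. In these 519, a tag that fits several miRNAs is counted for each, whereas the 8 arms leave shared miR-23 and miR-27 reads out. With shared tags counted for each paralog, 2 of the 8 arms reached 1.5-fold, both lower in the PD library. Over the 8 arms, shared reads left out, the median fold change was 1.02, with 4 above and 4 below the control. Over all 519 it was 0.888 (quartiles 0.754 and 1.04). With size factors of DESeq2, the median over all 519 was 1 and every fold change of RPM given here was 1.13 times larger (0.17 on the log2 scale). Without replicates these counts describe a pair of libraries.

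The largest fold change of an arm was that of miR-27a-3p, whose own reads rose from 11.4 to 23.3 RPM, a fold change of 2.05 (1.74 to 2.42). When reads shared with Mir27b were counted for it, the fold change turned to 0.606. The shared miR-27-3p reads fell to a fold change of 0.517 (0.489 to 0.546). miR-27b-3p, on its own reads, was at 0.882 (0.811 to 0.959). All miR-27-3p reads together were at 0.672 (0.643 to 0.701), just inside the 1.5-fold limit.

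The other 3p arms did not reach 1.5-fold. miR-23a-3p was at a fold change of 0.984 (0.946 to 1.02), an interval that held 1. miR-23b-3p was at 1.07 (1.01 to 1.13). miR-24-3p was at 1.20 (1.14 to 1.25), the highest of the 3p arms after miR-27a-3p. The fold change of miR-23a-3p was above 1 with each of the 4 other denominators tried, from 1.10 to 1.19, and that of miR-27b-3p lay between 0.987 and 1.07.

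Of the 5p arms, miR-23b-5p was at 1.30 (1.20 to 1.42), and relative to the clean reads of 20 to 24 nt it was at 1.58. miR-23a-5p was at 0.727 (0.546 to 0.965) and miR-27b-5p at 0.918 (0.838 to 1.01). The intervals of the rarest arms were wide. miR-27a-5p was at 0.976, miR-24-2-5p at 1.16, and miR-24-1-5p at 1.5 with an interval from 0.292 to 9.67, so that a change in these arms was not detectable at this depth.

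**Figure D2:**
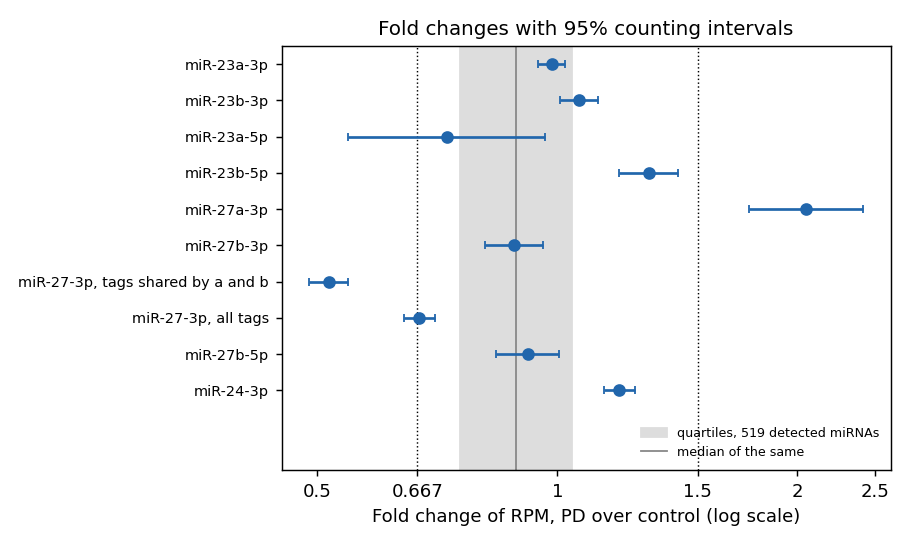
Fold change (PD RPM over control RPM, log axis) of the detected arms and of the shared and the summed miR-27-3p reads, with 95% intervals of the read counts as bars, the 1.5-fold limits dotted, and the median and quartiles of all detected miRNAs as a line and a grey band. miR-27a-3p on its own reads lies at 2.05, the reads shared by both miR-27 hairpins at 0.517, and the miR-23-3p arms near 1.

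The share of cluster a among the reads that name a cluster does not depend on the library's denominator. It was compared between the libraries by two-sided Fisher's exact tests, adjusted over 5 pairs of arms by the Benjamini-Hochberg method. For miR-27-3p, cluster a held 15.9% of such reads in the control and 30.6% in the PD library, an odds ratio of 2.32 (1.93 to 2.80, exact test, adjusted p = 3.35e-20). For miR-23-5p the share of cluster a fell from 11.1% to 6.49% (odds ratio 0.559, exact test, adjusted p = 2.15e-04). The miR-27-3p value leaves out the reads that fit both hairpins, and with tags of 21 nt or more its odds ratio was 1.20 (exact test, adjusted p = 0.395).

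For miR-23-3p the share of cluster a was 66.8% in the control and 65.1% after PD (odds ratio 0.924, 0.863 to 0.988, exact test, adjusted p = 0.0340). With tags that start at the first base of the mature miRNA only, the adjusted p of the exact test was 0.0576. For miR-27-5p the share was 1.26% and 1.34% (exact test, adjusted p = 1). Cluster a gave most of the few miR-24-5p reads, 14 of 17 in the control (82.4%, Wilson interval 59.0 to 93.8%) and 18 of 23 in the PD library (78.3%, exact test, adjusted p = 1). In both libraries the 5p reads came mainly from cluster b for miR-23 and miR-27 and mainly from cluster a for miR-24.

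The miR-27-3p tags were far shorter than those of the other arms. Most of these reads, 91.5% in the control and 82.6% after PD, were 18 to 20 nt long. This was true of 6.65% and 6.61% of miR-23-3p reads and of 1.42% and 2.27% of miR-24-3p reads. Of the 5p arms, miR-27b-5p had 27.6% and 20.3% of its reads at these lengths and miR-23b-5p 6.98% and 3.70%. In all other hairpins together it was 9.32% and 5.24%. The main miR-27-3p tags are printed here because their 3′ ends tell the hairpins apart, and a capital marks position 19.
shared, 18 nt: ttcacagtggctaagttc
Mir27b, 19 nt: ttcacagtggctaagttcT
Mir27a, 19 nt: ttcacagtggctaagttcC
Mir27b, 20 nt: ttcacagtggctaagttcTg
Mir27a, 20 nt: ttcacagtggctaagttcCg
Mir27b, 21 nt: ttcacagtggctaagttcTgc
Mir27a, 21 nt: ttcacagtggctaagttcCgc

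The shared tag of 18 nt, which ends just before position 19, was the most frequent, with 3432 reads (181.9 RPM) in the control and 1970 (94.1 RPM) after PD. It fell to a fold change of 0.517. The Mir27b tag of 19 nt had 783 and 607 reads (fold change 0.698), whereas the Mir27a tag of that length had 13 and 53 reads.

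At 20 nt the order of the paralogs was the opposite. The Mir27a tag had 110 reads in the control and 274 in the PD library and rose by a fold change of 2.24, while the Mir27b tag had 30 and 40 reads. At 21 nt Mir27b was again the more frequent, with 261 and 416 reads (fold change 1.44), beside 92 and 158 reads for Mir27a (fold change 1.55).

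**Figure D3:**
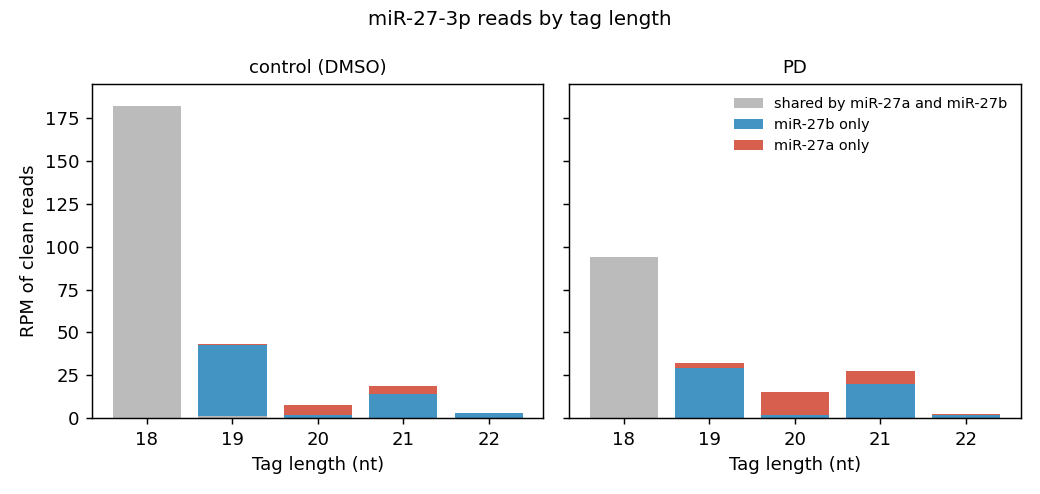
Reads of miR-27-3p by tag length (nt) in RPM, in the control and the PD library, divided into reads that fit both hairpins, Mir27a alone or Mir27b alone. The shared tag of 18 nt is the tallest bar in both libraries, at 181.9 RPM in the control and 94.1 RPM after PD.

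The cluster a share of miR-27-3p therefore differed by length. Over all starts, Mir27a gave 1.63% of the reads of 19 nt in the control and 8.17% after PD (exact test, adjusted p = 9.55e-09). At 20 nt it gave 75.9% and 87.0% (exact test, adjusted p = 0.0108). At 21 nt, the annotated mature length of both, it gave 26.0% and 27.5%, an odds ratio of 1.08 (exact test, adjusted p = 0.810). With tags of 21 nt or more only, the share was 22.5% and 25.9%, so that the difference between the libraries rested on tags of 19 and 20 nt. For miR-23-3p no single length passed, and the lowest adjusted p of these exact tests was 0.232.

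**Figure D4:**
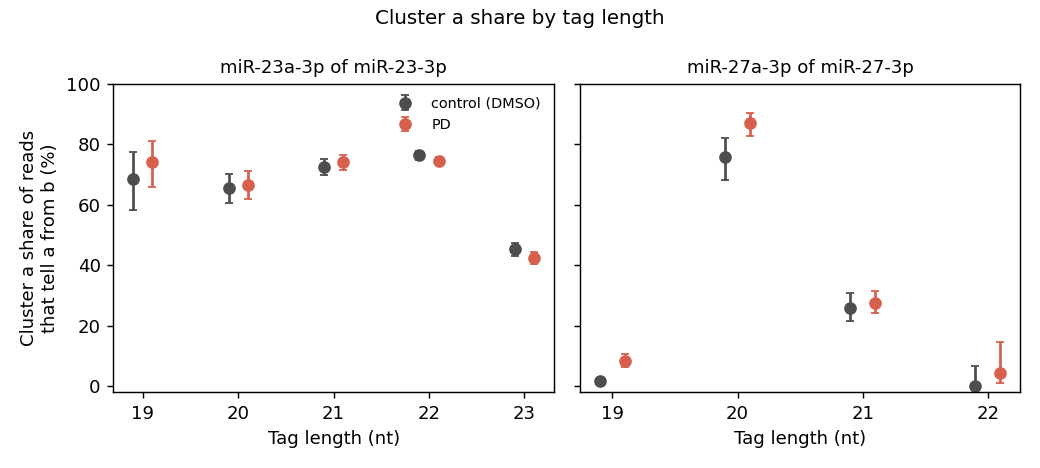
Share of cluster a (percent of the reads that name a cluster) by tag length (nt) for the 3p arms of miR-27 and miR-23, in the control and the PD library, with Wilson 95% intervals. For miR-27-3p the share is highest at 20 nt, at 75.9% in the control and 87.0% after PD, and at 21 nt the libraries lie at 26.0% and 27.5%.

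The tag of 19 nt that ends in T matches Mir27b, yet it cannot be told from the shared tag with a T added after the cell cut it. In the same way, the Mir27a tag of 19 nt cannot be told from the shared tag with an added C. The levels and bounds of miR-27a-3p and miR-27b-3p count each of these tags for the hairpin it matches. The shared tag with an added A, which matches neither hairpin, had 1 read in each library, and with an added G it had 0. Reads of miR-27-3p with a base of neither paralog at position 19 numbered at most 1 per length and library.

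The fold changes of miR-27-3p, miR-24-3p and miR-27b-5p differed with tag length. Among all miR-27-3p reads the fold change was 0.518 at 18 nt, 0.739 at 19 nt, 1.96 at 20 nt and 1.46 at 21 nt. For miR-24-3p it was 2.08 at 20 nt (39 and 90 reads), 1.58 at 21 nt (331 and 580 reads) and 1.14 at 22 nt (2996 and 3794 reads). miR-27b-5p was at 0.684 at 20 nt, 0.723 at 21 nt, 1.09 at 22 nt and 1.29 at 23 nt. miR-23-3p lay closer to 1 over its main lengths, at 0.945 at 20 nt, 0.969 at 21 nt, 0.992 at 22 nt and 1.08 at 23 nt.

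Short tags were fewer in the PD library when all other hairpins were summed, a sum in which abundant miRNAs weigh most. This sum was at a fold change of 0.385 at 18 nt, 0.448 at 19 nt, 0.556 at 20 nt, 0.828 at 21 nt and 0.894 at 22 nt. Of the 29 other miRNA tags of 18 nt with at least 200 reads, 28 were lower in the PD library, with a median fold change of 0.351 (quartiles 0.272 and 0.482), and 5 had a higher fold change than the shared miR-27 tag. Over 18 to 20 nt, all other hairpins were at 0.490 and miR-27-3p at 0.606. miR-23-3p was at 1.01 over the same lengths and miR-24-3p at 1.91 (48 and 102 reads, 1.35 to 2.76). The size make-up of the libraries also differed, with 63.0% of the control and 52.0% of the PD clean reads at 20 to 24 nt and 7.11% and 17.0% at 28 to 32 nt. The part of these differences in the fold changes of the miR-27 reads was not tested.

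**Figure D5:**
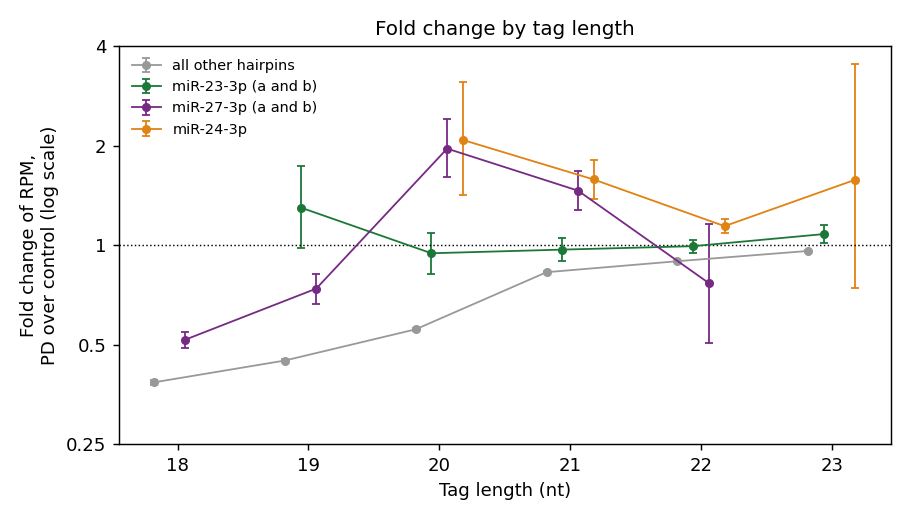
Fold change (PD RPM over control RPM, log axis) by tag length (nt) for miR-23-3p, miR-27-3p, miR-24-3p and all other hairpins (both arms) together, with 95% intervals of the read counts as bars. At 18 nt miR-27-3p lies at 0.518 and the other hairpins at 0.385, and at 20 nt miR-27-3p and miR-24-3p lie at 1.96 and 2.08, above the other hairpins at 0.556.

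The most frequent tags of the remaining arms were of usual miRNA length. The tag of 22 nt made up 57.2% of miR-23a-3p reads in the control and 56.4% in the PD library. miR-23b-3p had its most frequent tag at 23 nt (42.3% and 45.2%) and the next at 22 nt. A tag of 22 nt made up 88.3% and 84.2% of miR-24-3p reads, and a tag of 21 nt 76.3% and 82.3% of miR-23b-5p reads. The 5′ ends, which set the seed, were nearly uniform. Reads that start at the first base of the mature miRNA were 96.9% and 97.6% for miR-23a-3p, 96.7% and 96.8% for miR-23b-3p, 99.3% and 99.5% for miR-27-3p, and 99.2% and 99.4% for miR-24-3p. For miR-23b-5p, in contrast, reads that start 1 base earlier were 15.9% and 13.6%. Bases 2 to 8 of these earlier-starting reads equal the seed of miR-23a-5p.

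The use of the 5p arm differed widely between paralogs. In the control the 5p arm gave 2.30% of the reads of Mir23a, 27.7% of those of Mir23b, 5.29% of those of Mir27a and 45.2% of those of Mir27b, shared reads left out. It gave 0.499% of the reads of the miR-24 hairpins together. After PD the 5p share of Mir23b rose to 31.8% (odds ratio 1.22, 1.10 to 1.35, exact test, adjusted p = 4.56e-04). For Mir23a it was 1.71% (exact test, adjusted p = 0.0862), for Mir27a 2.59% (adjusted p = 0.130, exact test) and for the miR-24 hairpins 0.509% (adjusted p = 1, exact test).

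For Mir27b the 5p share after PD was 46.2% (odds ratio 1.04, exact test, adjusted p = 0.666). With the shared 3p reads counted, it rose from 17.0% to 23.6% (exact test, adjusted p = 5.47e-15), and with tags of 21 nt or more it fell from 68.2% to 62.3% (exact test, adjusted p = 0.00909). Its direction thus depended on the short tags. Over Mir27a and Mir27b together, with every read counted, the 5p share was 16.5% in the control and 21.3% after PD (odds ratio 1.37, exact p = 6.63e-10).

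The libraries carried the miRNAs that define mESCs. Of the miR-290-295 cluster, the main miRNA cluster of these cells, the hairpins Mir290a, Mir291a, Mir293, Mir294 and Mir295 summed to 31102 RPM in the control and 26368 RPM after PD, a fold change of 0.848. Its other members are not in this sum. The miR-302-367 cluster is better known from primed than from naive pluripotent cells. It had reads for 5 of 5 hairpins and rose from 15.2 to 26.7 RPM, a fold change of 1.76 (1.52 to 2.03). Of these hairpins, Mir302c (3 and 4 reads) and Mir367 (1 and 6 reads) were barely seen. Of the markers of fibroblasts or mesenchyme, cells that express miR-23/27/24 well, 6 of 6 had reads, at 209.5 and 179.4 RPM summed. The sum was mostly Mir143, at 109.2 and 109.6 RPM, and miR-199a, with Mir199a-1 at 92.3 and 61.7 RPM. Mir145a was at 7.21 and 7.54 RPM, Mir10b had 15 and 12 reads, and Mir214 had 0 and 1 read. The endothelial marker miR-126a was at 3.66 and 2.72 RPM and the liver marker miR-122 at 2.91 and 2.01 RPM. Blood markers were at 31.9 and 26.7 RPM with Mir223 at 0 in both libraries, and muscle markers at 160.6 and 167.4 RPM (5 of 5 with reads). The muscle sum was mostly miR-1a, at 157.2 and 165.7 RPM. Mir206 had 59 and 25 reads, and Mir133a-1 and Mir133a-2 had 11 reads or fewer in each library. The neural markers, 6 of 6 with reads, were at 278.4 and 493.1 RPM, mostly miR-124a at 257.4 and 475.7 RPM. The miR-9 hairpins did not rise, with Mir9-1 at 20.9 and 17.4 RPM. The part of other cell types in the miR-23/27/24 levels was not tested.

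For comparison, miRNAs known as targets of ERK and AP-1 were read in the same libraries by their main arm. miR-21a-5p was at 557.1 and 514.7 RPM, a fold change of 0.924. miR-221-3p was at 41.8 and 28.1 RPM, a fold change of 0.672. The median fold change of all 519 detected miRNAs was 0.888. miR-222-3p fell from 59.1 to 24.6 RPM, a fold change of 0.417.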

How the data were processed

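Small RNA of J1 mESCs was measured in 2 libraries, 1 per treatment, each of RNA pooled from 3 experiments. The authors gel-purified the small RNA, ligated adapters, sequenced it, and removed poor reads and reads shorter than 18 nt. The deposited value is the raw count of clean reads of each distinct tag. The values are unnormalized and hold no alignment. The submitters' processing notes name the build mm9. Here the tags were matched to the hairpins of GENCODE M21 (GRCm38), so no coordinate of mm9 is given. The line with the total was left out.

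Tags were matched in Python 3.11.15 with numpy 2.4.6 and pandas 2.3.3. Arms were separated by folding the hairpins with ViennaRNA 2.7.2, and a tag was counted for an arm when it overlapped the most frequent tag by at least 16 nt. Tags that fit both paralogs were counted apart for the 6 hairpins, and for each miRNA in the list of all detected mature miRNAs. RPM refers to all clean reads, with 0.01 RPM in place of 0. Fold changes have Clopper-Pearson and shares Wilson 95% intervals (SciPy 1.17.1), which cover counting error only, since PCR reads are not independent molecules. Fisher's exact tests compared shares between libraries, not treatments. The tests of edgeR and DESeq2 need replicates and were not run. TMM factors of edgeR 4.0.16 and size factors of DESeq2 1.42.0 (R 4.3.3) served only as other denominators. A check on simulated tags, each of a single hairpin, was passed. It asked if the most frequent tag of an arm was found again and if fold change intervals covered the set values. Shared tags and the division by length were not simulated.

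The miRNAs named were all arms of the 6 hairpins, the hairpins opposite to Mir24-1 and Mir24-2, miRNAs of the same seed, miR-21a, miR-221 and miR-222, marker lists of cell types, and the 2 miRNAs of other families nearest in level to the most abundant miRNA of each family. The members and lists were chosen with earlier results of these data known. Alternatives were other denominators, tags of 21 nt or more, tags that start at the first base, the most frequent tag only, shared tags counted for both paralogs, a downsampled PD library, other detection limits and a 2-fold limit.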

Additional observations from a re-analysis of the deposited data

How the results depend on the processing

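No paired analysis was possible because there was 1 library per treatment, and for the same reason no replicate could be left out. Values are fold changes of PD over control. With reads that match a hairpin, clean reads of 20 to 24 nt, TMM and DESeq2 size factors as denominators in turn, miR-23a-3p was at 1.13, 1.19, 1.10 and 1.11, miR-23b-3p at 1.22, 1.29, 1.19 and 1.20, miR-27b-3p at 1.01, 1.07, 0.987 and 0.993, miR-24-3p at 1.37, 1.45, 1.34 and 1.35, and all miR-27-3p reads at 0.770, 0.813, 0.752 and 0.756. miR-27a-3p was at 2.48 with the reads of 20 to 24 nt. With tags of 21 nt or more, miR-27a-3p was at 1.58, miR-27b-3p at 1.31 and all miR-27-3p at 1.37. With the most frequent tag only, miR-23b-3p was at 1.14, miR-27b-3p at 0.698, miR-24-3p at 1.14, all miR-27-3p at 0.517 and miR-24-1-5p at 0.901. With shared tags counted for each paralog, miR-27a-3p reversed to 0.606 and miR-27b-3p was at 0.607.

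The arms past 1.5-fold numbered 2 in place of 1 with reads of 20 to 24 nt, 2 (both lower) with shared tags counted for each, and 2 of 11 without a detection limit. For shares, values are odds ratios. The cluster a share of miR-27-3p was at 1.20 with tags of 21 nt or more, and that of miR-27-5p at 0.965. With tags that start at the first base, the share of miR-23-3p was at 0.929. The 5p share of Mir27b was at 0.769 with tags of 21 nt or more and at 1.51 with shared tags counted, where that of Mir27a was at 1.61. The 5p share of the miR-24 hairpins, on 17 and 23 reads, was at 0.983 with tags of 21 nt or more, 0.929 with the first base and 0.733 with the most frequent tag.

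Tags of 20 nt or more, and each length alone, were chosen after seeing the data. With 20 nt or more, miR-27b-3p was at 1.29 and all miR-27-3p at 1.53. Within 1 length, the cluster a share of miR-23-3p was at 1.31, 1.05 and 1.08 for 19, 20 and 21 nt, against 0.924 over all, and at 0.910, 0.894 and 0.427 for 22, 23 and 24 nt, and that of miR-27-3p was at 1.08 for 21 nt. Of the 5p arms, miR-23b-5p lay between 1.46 and 1.58 and miR-27b-5p between 1.03 and 1.11 with the other denominators, and miR-27b-5p at 1.01 with tags of 21 nt or more and at 0.722 with the most frequent tag. The causes were not tested. A further 119 values moved by less than their counting interval or, where tested, kept their direction and their side of the threshold. Depth limits miR-27a-5p and both miR-24-5p arms, at 18 reads or fewer per library.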

Other observations

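Outside the mature arms, the 6 hairpins had 5 tags with 7 reads over both libraries. The hairpins of miR-3074, which lie opposite Mir24-1 and Mir24-2, had 11 reads in the control and 13 in the PD library. Of 55 tags of the 6 hairpins with at least 10 reads, 21 also match a transcript of 2010111I01Rik, which covers Mir27b and Mir24-1. These 21 tags held 17388 of the 35848 reads of the 55 tags. None of the 55 matches a transcript of another gene in GENCODE M21, Gm26532 included.

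The detected miRNAs of other families nearest to miR-23a-3p in log2 RPM over the 2 libraries were miR-340-5p (distance 0.103) and miR-291b-5p (0.122). Nearest to miR-24-3p were miR-183-5p (0.190) and miR-26b-5p (0.214). For miR-27b-3p only its own reads were used (60.1 and 53.0 RPM), with the shared miR-27-3p reads left out. On these reads the nearest were miR-1193-5p (0.100) and miR-6236-5p (0.139). With shared reads counted, miR-27b-3p would lie at up to 243.1 and 147.6 RPM, so that these need not be its nearest miRNAs. These distances rest on 1 library per treatment.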
